A study of Homo sapiens with 12 samples.

Results

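The transcripts of 10 histone lysine demethylases of the KDM3, KDM4, KDM5 and KDM6 groups were followed through 12 RNA-seq libraries of prostate cancer cells. The members were taken by gene symbol, whatever their values, and each of the 10 symbols matched 1 of the 60675 Ensembl genes in the count files. They are KDM3A, KDM3B and JMJD1C, KDM4A, KDM4B and KDM4C, KDM5A and KDM5B, and KDM6A and KDM6B. All 10 were counted in each of the 12 libraries and passed the filter on low counts in every comparison.

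These enzymes share a JmjC domain, which uses iron, oxygen and 2-oxoglutarate to oxidise methyl groups on histone lysines, so that the mark is lost. The KDM3 group acts on H3K9, a mark of silent chromatin, the KDM4 group on H3K9 and H3K36, the KDM5 group on H3K4, which marks active promoters, and the KDM6 group on H3K27, the Polycomb mark. KDM1A, the target of one inhibitor used here, is not a JmjC enzyme: it needs FAD and removes methyl groups from H3K4 and H3K9. In prostate cancer cells KDM3A, KDM4B and KDM4C are known as coactivators of the androgen receptor, and several JmjC genes, KDM3A among them, are known to be induced in hypoxia.

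Cells were of LNCaP, a human prostate cancer line that depends on androgen, and of LNCaP:C42, called C4-2, its castration-resistant derivative. All 6 groups, of 2 biological replicates each, received the synthetic androgen R1881 at 1 nM for 72 h in hormone-depleted medium with DMSO vehicle. In C4-2 the groups were R1881 alone, R1881 with namoline (a KDM1A inhibitor, 50 µM), R1881 with TCE-5002, and R1881 with both, called the combination. LNCaP had R1881 alone and the combination. TCE-5002 is described as an inhibitor selective for KDM7A, another JmjC demethylase. The study states that it also targets KDM7B (PHF8) and KDM2A at doses under 50 µM. TCE-5002 is listed at 100 µM with the series and at less in the methods of the study, which leaves the dose of the TCE-5002 and combination groups uncertain.

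Library totals ran from 14791602 to 20690819 counts, and replicates differed by more than counting noise in each group. Across genes the difference between replicates followed transcript GC content, with Spearman rho from -0.787 in C4-2 with TCE-5002 to 0.625 in LNCaP with the combination. The libraries labelled LNCaP went against that label in most of their markers. Their 4 mesenchymal genes, among them VIM, summed to 720 to 864 CPM against 15.9 to 46.0 in C4-2. CPM are a gene's counts scaled to a common library size. Their 11 luminal prostate genes, among them CDH1, summed to 396 to 1007 CPM against 2342 to 5119. With R1881 alone that sum was 940 to 1007 CPM against 3390 to 3593. Of the 11, 10 were then higher in C4-2 and KLK3 was lower, at 376 CPM in LNCaP against 217 in C4-2. The 3 leukocyte markers stayed under 0.5 CPM in sum in each library, while the 3 fibroblast markers, of which only COL1A1 passed 1 CPM, summed to 36.5 to 85.5 CPM in C4-2 and to 2.54 to 4.94 CPM in the libraries labelled LNCaP. The file header of LNCaP combination replicate 1 names namoline only, so the member calls that rest on it, and the list genes named for the LNCaP combination, are also given without it.

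Levels below are CPM scaled by TMM over the 12 libraries, and levels of different genes are compared only per kilobase of exon. In C4-2 with R1881 alone, KDM6A had the highest level per kilobase, 31.6 ± 2.04 CPM per kb (SD, n = 2), followed by KDM4A (27.01 ± 0.0691), KDM6B (24.8 ± 1.08), JMJD1C (20.6 ± 0.991) and KDM3B (19.6 ± 0.226). Lower were KDM5B (10.1 ± 0.0817), KDM4B (6.61 ± 0.421), KDM3A (5.64 ± 0.0192), KDM5A (5.25 ± 0.0748) and KDM4C (2.90 ± 0.223). Among neighbours in this order, JMJD1C and KDM3B differed by little more than the larger of their SDs, while the other neighbours differed by more than their spread. The KDM4C level per kilobase is a low estimate, since 32.1% of its exon bases are shared with other listed genes that hold 0 counts, and fragments matching more than 1 gene were left uncounted. Shared exon bases were 8.97% for KDM4A (antisense KDM4A-AS1), 3.50% for JMJD1C (antisense JMJD1C-AS1) and 1.5% for KDM5A (CCDC77 on the other strand), and 0% for the other 6 members.

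**Figure D1:**
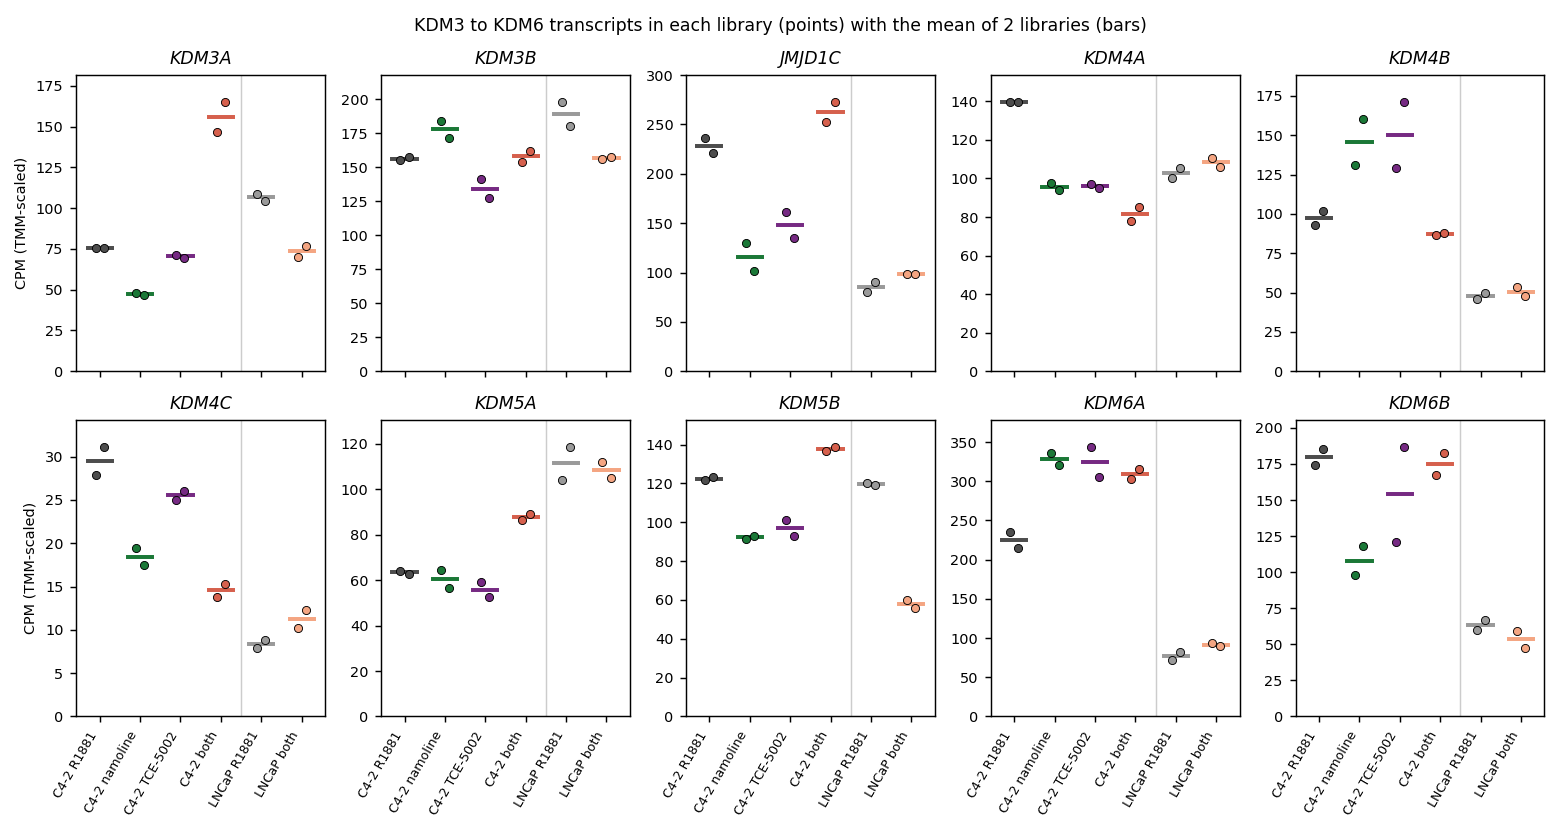
TMM-scaled CPM (vertical axes, each from 0) of the 10 genes in the 6 groups on the horizontal axes. Points are libraries and bars the mean of 2. KDM3A is highest in C4-2 with both inhibitors (147 and 165 CPM), and KDM4B is highest with either single inhibitor. KDM6A, KDM6B, JMJD1C, KDM4B and KDM4C are lower in each library labelled LNCaP than in each C4-2 library.

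In C4-2, whether a single inhibitor or the pair changed these transcripts was asked against R1881 alone, with edgeR's quasi-likelihood F test and p-values adjusted over all 17702 genes tested. A gene is said to rise or fall where the adjusted p was under 0.05, and is past the 2-fold threshold where the log2 fold change was also at least 1 in size. With namoline 2 members rose and 6 fell (8 of 10 by adjusted p, against 35.0% of all genes, 18.7% higher and 16.3% lower), with a median log2 fold change of -0.49 over the members and -0.0043 over all genes. With TCE-5002 2 rose and 3 fell, against 36.5% of all genes (19.9% higher and 16.7% lower), and the median was -0.21 beside -0.00014. With the combination 3 rose and 2 fell, against 50.3% of all genes (24.8% higher and 25.6% lower), and the median was 0.07 beside -0.03. Past the 2-fold threshold were 0 members with namoline and 0 with TCE-5002 (12.1% and 11.8% of all genes), and 2 with the combination (21.7%), KDM3A higher and KDM4C lower. By unadjusted p under 0.05 the numbers of all genes were 7863 for namoline and 8105 for TCE-5002. The 3 comparisons share the R1881 libraries, so a deviation of those libraries enters all of them.

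KDM3A, an H3K9 demethylase, had the widest range of the 10 across the C4-2 groups, 1.70 on the log2 scale between group means. It measured 75.5 and 75.8 CPM with R1881 alone, 47.7 and 46.9 with namoline, 71.5 and 69.5 with TCE-5002, and 147 and 165 with the combination. No 2 of these groups overlapped, with namoline at the low end and the combination at the high end. The log2 fold change was -0.69 ± 0.11 (SE) with namoline (adjusted p = 0.0002389), -0.10 ± 0.11 with TCE-5002 (adjusted p = 0.4969) and 1.02 ± 0.11 with the combination (adjusted p = 3.59e-06). KDM3A stayed called with the combination in each alternative fit, but its log2 fold change was 0.95 without combination replicate 2, under the 2-fold threshold.

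JMJD1C, the largest KDM3 relative, whose own demethylase activity has been debated, measured 236 and 221 CPM with R1881 alone, 130.1 and 101 with namoline, 161 and 135 with TCE-5002, and 252 and 273 with the combination. It was lower with either inhibitor than with R1881, and the combination libraries stood above all the others by a narrow margin. The log2 fold change was -0.99 ± 0.13 with namoline (adjusted p = 6.265e-05) and -0.62 ± 0.13 with TCE-5002 (adjusted p = 0.002287). With the combination it was 0.18 ± 0.13, which did not pass the test (adjusted p = 0.281) but did with only the 4 libraries compared (0.17, adjusted p = 0.03) and after GC correction (0.22, adjusted p = 0.0338). The namoline value lies at the 2-fold threshold and passed it without R1881 replicate 2 (-1.04) and without namoline replicate 1 (-1.21).

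KDM3B, the third member of the KDM3 group and an H3K9 demethylase, passed the test in none of the 3 comparisons. Its levels were 155 and 157.5 CPM with R1881, 184 and 171 with namoline, 141 and 127 with TCE-5002, and 154 and 162 with the combination. Its log2 fold changes were 0.17 ± 0.11, -0.22 ± 0.11 and -0.01 ± 0.11 (adjusted p = 0.2331, 0.1248 and 0.9515). The TCE-5002 value passed after GC correction (-0.25, adjusted p = 0.0114) and without TCE-5002 replicate 1 (-0.30, adjusted p = 0.0141).

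KDM4A, which acts on H3K9 and H3K36, fell in all 3 treated groups, from 139 and 139.9 CPM with R1881 to 97.6 and 94.1 with namoline, 97.0 and 95.3 with TCE-5002, and 77.7 and 85.4 with the combination. Every treated library lay below both R1881 libraries. The log2 fold changes were -0.56 ± 0.11, -0.54 ± 0.11 and -0.80 ± 0.11 (adjusted p = 0.0009521, 0.001221 and 2.709e-05). KDM4C fell with namoline and the combination, and its libraries held from 243 to 596 counts in C4-2, the fewest of the members. It measured 27.9 and 31.1 CPM with R1881, 19.4 and 17.5 with namoline, 25.0 and 26.1 with TCE-5002, and 13.8 and 15.3 with the combination. The groups did not overlap, and the TCE-5002 libraries stood nearest to R1881. Its log2 fold change was -0.69 ± 0.14 with namoline (adjusted p = 0.001421), -0.21 ± 0.14 with TCE-5002 (adjusted p = 0.2484) and -1.04 ± 0.14 with the combination (adjusted p = 3.171e-05). The combination value stayed called in each fit, but was inside 2-fold after GC correction (-0.98), without R1881 replicate 2 (-0.98) and without combination replicate 1 (-0.97).

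KDM4B went the other way from its relatives with the single inhibitors. It measured 92.9 and 102 CPM with R1881, 131 and 160.0 with namoline, 129 and 171 with TCE-5002, and 86.4 and 87.7 with the combination. All 4 libraries with a single inhibitor lay above all 4 with R1881 or the combination, though replicates differed most where the level was high. The log2 fold change was 0.57 ± 0.14 with namoline (adjusted p = 0.005933), 0.63 ± 0.14 with TCE-5002 (adjusted p = 0.002931) and -0.19 ± 0.14 with the combination (adjusted p = 0.2875). KDM4B is GC-rich (61.2% of its transcript), and after GC correction the single values were 0.35 and 0.35, both still called. The combination value passed the test with only the 4 libraries compared (-0.19, adjusted p = 0.0213) and after GC correction (-0.21, adjusted p = 0.0236). The namoline call was lost without R1881 replicate 1 (0.51, adjusted p = 0.073) and without namoline replicate 2 (0.40, adjusted p = 0.113).

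KDM5A and KDM5B, which remove methyl groups from H3K4, moved less. KDM5A measured 64.2 and 62.9 CPM with R1881, 64.5 and 56.6 with namoline, 59.0 and 52.4 with TCE-5002, and 86.6 and 89.2 with the combination. It rose with the combination only among the 3 comparisons, by 0.44 ± 0.12 on the log2 scale (adjusted p = 0.005578), against -0.08 ± 0.12 and -0.19 ± 0.12 with namoline and TCE-5002 (adjusted p = 0.6182 and 0.226). That call was lost without R1881 replicate 2 (0.42, adjusted p = 0.065) and without combination replicate 2 (0.44, adjusted p = 0.0586). The TCE-5002 value passed the test without TCE-5002 replicate 1 (-0.28, adjusted p = 0.0378).

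KDM5B measured 122 and 123 CPM with R1881, 91.4 and 93.2 with namoline, 101 and 93.1 with TCE-5002, and 137 and 139 with the combination. The libraries with a single inhibitor were the lowest and those with the combination the highest. KDM5B fell with namoline by 0.42 ± 0.10 on the log2 scale (adjusted p = 0.005949) and with TCE-5002 by 0.33 ± 0.10 (adjusted p = 0.02099), and measured 0.15 ± 0.10 with the combination (adjusted p = 0.255). The namoline call was lost without any one of the 4 libraries compared (adjusted p from 0.0507 to 0.0698). The TCE-5002 call was lost without R1881 replicate 1 or 2 (adjusted p = 0.148 and 0.136), without a filter on low counts (0.059) and with only the 4 libraries compared (0.0969). The combination value passed the test after GC correction (0.20, adjusted p = 0.0198).

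KDM6A, the X-linked H3K27 demethylase that works with the KMT2C and KMT2D methyltransferases, rose in all 3 treated groups. It measured 236 and 215 CPM with R1881, 336 and 321 with namoline, 344 and 305 with TCE-5002, and 303 and 316 with the combination. The treated groups lay close to one another, and every treated library lay above both R1881 libraries. The log2 fold changes were 0.53 ± 0.11, 0.53 ± 0.11 and 0.43 ± 0.11 (adjusted p = 0.001959, 0.001991 and 0.004916). Without R1881 replicate 2 the combination value was 0.35 (adjusted p = 0.0957), and without combination replicate 2 it was 0.41 (adjusted p = 0.0608).

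KDM6B, the other H3K27 demethylase and a gene often induced by inflammatory signals, fell with namoline. It measured 174 and 185 CPM with R1881, 98.2 and 118 with namoline, 121 and 187 with TCE-5002, and 167 and 182 with the combination. The TCE-5002 replicates spanned the R1881 values, so that only the namoline libraries stood apart. The log2 fold change was -0.75 ± 0.16 with namoline (adjusted p = 0.002815), -0.22 ± 0.16 with TCE-5002 (adjusted p = 0.307) and -0.07 ± 0.16 with the combination (adjusted p = 0.7542). KDM6B is the most GC-rich member (62.4%). Its TCE-5002 value was -0.55 after GC correction (adjusted p = 1.3e-05), -0.56 without TCE-5002 replicate 2 and 0.05 without TCE-5002 replicate 1.

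**Figure D2:**
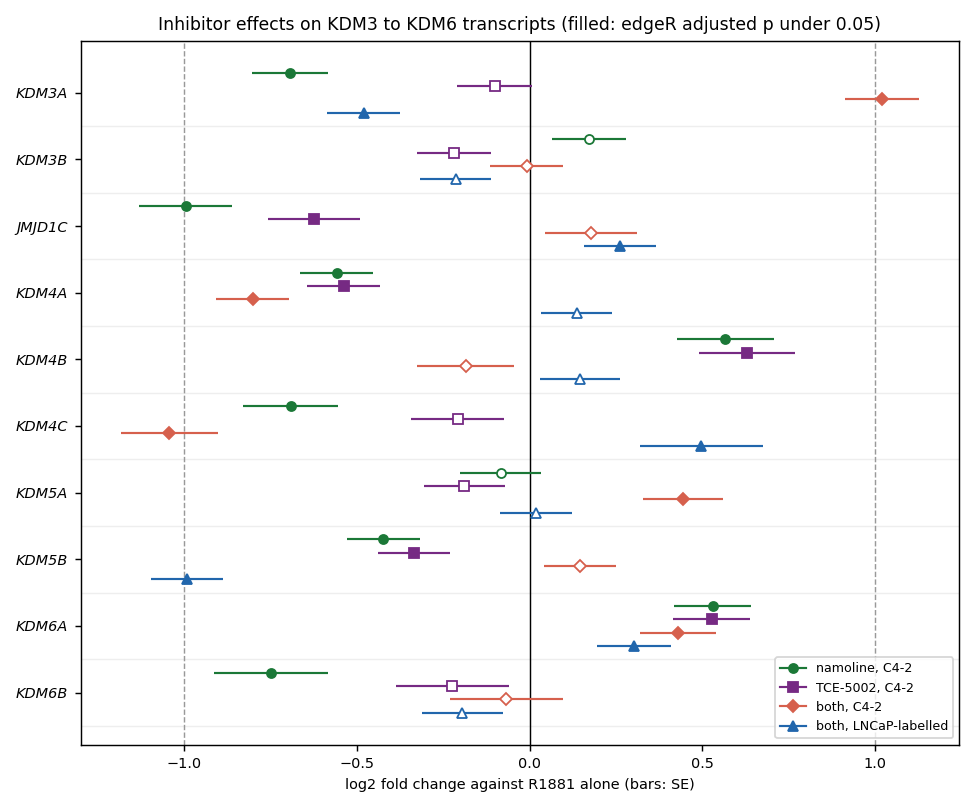
Log2 fold change against R1881 alone (horizontal axis, bars are SE) of each gene (vertical axis) for the 3 C4-2 comparisons and for both inhibitors in the libraries labelled LNCaP, with filled symbols where edgeR's adjusted p was under 0.05. Dashed lines mark 2-fold. KDM3A and KDM4C with both inhibitors in C4-2 lie past them, at 1.02 and -1.04.

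Whether the combination equals the sum of the single effects was asked with the interaction, on the log2 scale the effect of the combination less the sum of the effects of namoline and of TCE-5002. KDM3A and JMJD1C stood above their sums and KDM4B below. For KDM3A the single effects summed to -0.79 and the combination was 1.02, an interaction of 1.81 ± 0.15 (adjusted p = 2.69e-07). For JMJD1C the sum was -1.62 and the combination 0.18, an interaction of 1.80 ± 0.19 (adjusted p = 2.18e-06). Both held in each alternative fit, between 1.70 and 1.88 for KDM3A and between 1.63 and 2.00 for JMJD1C. For KDM4B the sum was 1.19 and the combination -0.19, an interaction of -1.38 ± 0.20 (adjusted p = 3.881e-05), which GC correction reduced to -0.91, inside 2-fold.

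By adjusted p, 5 members had a combination above the sum and 2 below (7 of 10, against 53.5% of all genes, 25.6% above and 27.9% below), and 3 were past the 2-fold threshold (35.3% of all genes). KDM5B (0.90 ± 0.15), KDM6B (0.91 ± 0.23) and KDM5A (0.72 ± 0.16) were the other 3 above, and KDM6A (-0.63 ± 0.16) the other below. KDM6B was 1.46 after GC correction and ranged from 0.65 without TCE-5002 replicate 1 to 1.24 without TCE-5002 replicate 2, called throughout, and it passed 2-fold in those 2 higher cases and without namoline replicate 2 (1.05). KDM3B (0.04 ± 0.15), KDM4A (0.29 ± 0.15) and KDM4C (-0.14 ± 0.20) did not pass the test (adjusted p = 0.8473, 0.1111 and 0.5625). KDM4A passed it after GC correction (0.42, adjusted p = 0.00201) and without TCE-5002 replicate 1 (0.33, adjusted p = 0.0261).

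**Figure D3:**
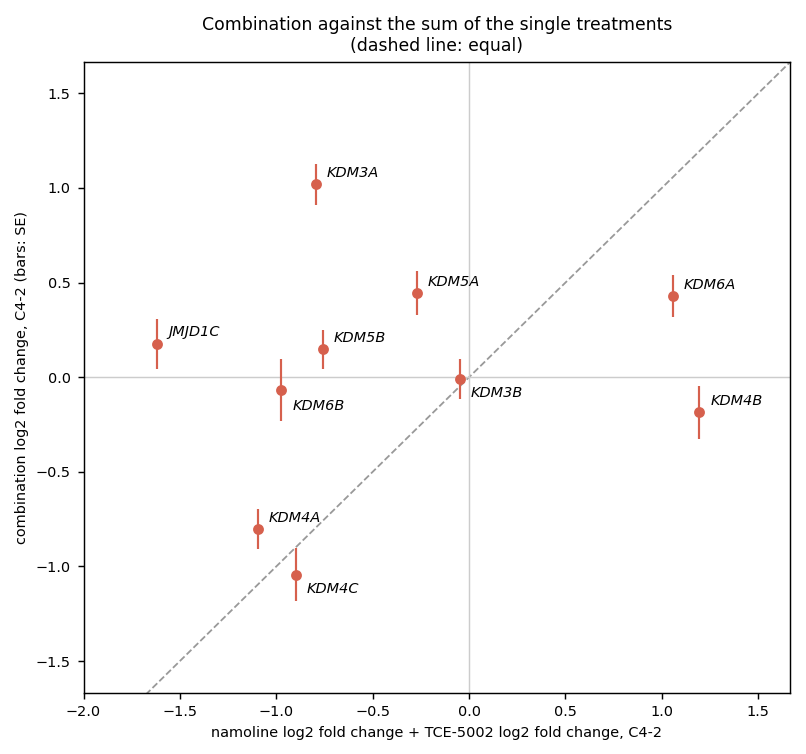
Log2 fold change with the combination (vertical axis, bars are SE) against the sum of the log2 fold changes with namoline and TCE-5002 (horizontal axis) in C4-2, 1 point per gene, all from the same 8 libraries. KDM3A and JMJD1C lie farthest above the dashed line of equality (interactions of 1.81 and 1.80) and KDM4B farthest below it (-1.38).

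Luminal prostate genes moved with each treatment, with all 11 over 1 CPM in every group. Their summed level was 3390 to 3593 CPM with R1881, 3845 to 4264 with namoline, 4983 to 5119 with TCE-5002 and 2342 to 2354 with the combination. By adjusted p 5 of the 11 were higher and 1 lower with namoline (against 18.7% and 16.3% of all genes), 7 higher and 1 lower with TCE-5002 (19.9% and 16.7%), and 1 higher and 8 lower with the combination (24.8% and 25.6%). The summed level thus stood highest with the single inhibitors and lowest with the combination, as KDM4B did. Single genes weigh on this sum. TMPRSS2 alone went from 389 CPM with R1881 to 800 with namoline and 1318 with TCE-5002. Not every gene shared the order: CDH1 was highest with R1881 (978 CPM), and KRT8 and KRT18 with the combination (566 and 361 CPM). The part of the luminal genes in the member values was not tested.

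The promoter windows of 3 members are shown, JMJD1C, KDM4A and KDM4B. Of the members' windows nearest to the deposited gene start, only these 3 hold no exon base of any listed gene. Each is the 250 bases before a RefSeq transcript start (GRCh38.p14), 5′ to 3′ on the gene's strand, with ACGTG and GCGTG in capitals on either strand, so also as CACGT and CACGC.
JMJD1C (chr10:63521891-63522140, minus strand, in an intron of REEP3): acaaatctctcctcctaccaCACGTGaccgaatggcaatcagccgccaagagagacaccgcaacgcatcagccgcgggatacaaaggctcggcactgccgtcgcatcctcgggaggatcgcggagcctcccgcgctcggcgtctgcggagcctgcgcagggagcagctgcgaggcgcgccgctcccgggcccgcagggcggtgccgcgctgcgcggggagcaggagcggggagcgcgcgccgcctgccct
KDM4A (chr1:43649899-43650148, plus strand): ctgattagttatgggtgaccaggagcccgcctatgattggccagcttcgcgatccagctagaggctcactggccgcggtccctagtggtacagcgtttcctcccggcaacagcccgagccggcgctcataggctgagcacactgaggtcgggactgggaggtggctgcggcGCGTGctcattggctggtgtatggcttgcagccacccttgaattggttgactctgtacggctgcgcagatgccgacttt
KDM4B (chr19:4968863-4969112, plus strand): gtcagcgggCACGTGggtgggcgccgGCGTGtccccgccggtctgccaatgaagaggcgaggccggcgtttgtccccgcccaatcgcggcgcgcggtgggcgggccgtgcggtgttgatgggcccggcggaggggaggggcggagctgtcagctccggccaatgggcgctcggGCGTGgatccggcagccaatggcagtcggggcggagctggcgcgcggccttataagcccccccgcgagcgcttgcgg
ACGTG and GCGTG are the core letters of hypoxia response elements, and CACGTG, which counts as ACGTG on both strands, is the E-box read by MYC and related factors. JMJD1C holds 2 ACGTG in 1 CACGTG, KDM4A 1 GCGTG, and KDM4B 2 ACGTG in 1 CACGTG and 2 GCGTG. Either motif lies in 43.2% of all 35116 windows of this length (ACGTG in 18.5%, GCGTG in 32.2%, CACGTG in 6.3%) and in the window nearest to the deposited gene start of 8 of the 10 members. The windows are rich in C and G (72.0%, 61.2% and 75.6%, against a median of 58.0% over all windows). These letters describe the sequence and say nothing of binding.

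Between the lines, R1881 alone was compared first, over 19763 genes and with the libraries labelled LNCaP as they are. KDM4C, KDM6A, KDM6B, JMJD1C and KDM4B were higher in C4-2 and past the 2-fold threshold, so 5 of 10 were past it against 50.5% of all genes. By adjusted p 6 were higher and 3 lower in C4-2 (9 of 10, against 76.8% of all genes, 37.8% higher and 39.0% lower), and the median was 0.77 beside 0.00052 over all genes. KDM4C measured 7.87 and 8.83 CPM in LNCaP against 27.9 and 31.1 in C4-2, a log2 difference of 1.85 ± 0.14 (adjusted p = 1.58e-11). KDM6A measured 71.6 and 82.5 CPM in LNCaP, a difference of 1.58 ± 0.09 (adjusted p = 1.033e-13), and KDM6B 60.2 and 67.1, a difference of 1.53 ± 0.10 (adjusted p = 7.26e-13). Both H3K27 demethylases were thus lower in each LNCaP-labelled library than in each C4-2 library. The same held for JMJD1C, KDM4B and KDM4C, and the share of all genes that separate in this way was not counted.

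JMJD1C measured 80.6 and 90.6 CPM in LNCaP (difference 1.44 ± 0.09, adjusted p = 2.867e-13) and KDM4B 45.6 and 49.5 (1.06 ± 0.09, adjusted p = 2.208e-10). The KDM4B value was 0.97 without LNCaP R1881 replicate 1. KDM4A was also higher in C4-2 (0.47 ± 0.08), while KDM5A (-0.78 ± 0.09), KDM3A (-0.47 ± 0.09) and KDM3B (-0.25 ± 0.08) were lower. KDM5A measured 104 and 119 CPM in LNCaP against 64.2 and 62.9 in C4-2. KDM5B was nearly level, at 120.5 and 119 against 122 and 123 CPM, a difference of 0.06 ± 0.08 (adjusted p = 0.5074), which passed the test after GC correction (0.18, adjusted p = 0.0256). The KDM3B call was lost after GC correction (-0.11, adjusted p = 0.151) and without LNCaP replicate 1 (-0.21), C4-2 replicate 1 (-0.25) or C4-2 replicate 2 (-0.24), with adjusted p from 0.0509 to 0.0611. After GC correction the median of all genes moved to 0.12, the largest such shift among the comparisons. The order per kilobase in LNCaP began with KDM3B (23.8 ± 1.60 CPM per kb), KDM4A (19.9 ± 0.711) and KDM6A (10.8 ± 1.08) and ended with KDM4C (0.820 ± 0.0669).

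In the libraries labelled LNCaP the combination was compared with R1881 alone over 17565 genes. By adjusted p 3 members rose and 2 fell (5 of 10, against 56.2% of all genes, 28.0% higher and 28.2% lower) and 0 were past the 2-fold threshold (18.7% of all genes, and 10648 genes had an unadjusted p under 0.05). KDM5B, an H3K4 demethylase, fell most, from 120.5 and 119 CPM to 59.9 and 55.9, a log2 fold change of -0.99 ± 0.10 (adjusted p = 1.269e-09). It passed 2-fold without R1881 replicate 2 (-1.0), without combination replicate 1 (-1.04) and after GC correction (-1.13). KDM3A fell from 109 and 105 CPM to 70.0 and 76.8 (-0.48 ± 0.10, adjusted p = 0.0002102), and by 0.42 without combination replicate 1, the library whose header names namoline only. In both genes each treated library lay below each R1881 library.

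KDM4C rose from 7.87 and 8.83 to 10.2 and 12.3 CPM (0.50 ± 0.18, adjusted p = 0.01794), KDM6A from 71.6 and 82.5 to 93.2 and 89.3 CPM (0.30 ± 0.11, adjusted p = 0.01591), and JMJD1C from 80.6 and 90.6 to 98.9 and 98.4 CPM (0.26 ± 0.10, adjusted p = 0.03203). These are small steps, and each call was lost when a single library was left out. KDM4C was 0.41 without R1881 replicate 1 and 0.35 without combination replicate 2 (adjusted p = 0.148 and 0.155), KDM6A 0.20 without R1881 replicate 1 (adjusted p = 0.308), and JMJD1C 0.17 and 0.34 without R1881 replicate 1 and 2 (adjusted p = 0.366 and 0.054). GC correction also removed the KDM6A and JMJD1C calls (0.14 and 0.03, adjusted p = 0.17 and 0.769), as did all 12 libraries in 1 fit (0.24 and 0.20, adjusted p = 0.0789 and 0.193). The JMJD1C call was also lost with DESeq2 (adjusted p = 0.0527) and without a filter on low counts (adjusted p = 0.101), and the KDM4C call with DESeq2 (adjusted p = 0.0645). Without combination replicate 1 the 3 values were 0.62, 0.27 and 0.26, all called. KDM3B (-0.21 ± 0.10), KDM4A (0.14 ± 0.10), KDM4B (0.15 ± 0.11), KDM5A (0.02 ± 0.10) and KDM6B (-0.19 ± 0.12) did not pass the test. Without combination replicate 1 the first 4 were -0.21, 0.10, 0.07 and -0.03, again not called. KDM3B passed it with all 12 libraries in 1 fit (-0.27, adjusted p = 0.0373), KDM4B after GC correction (0.52), KDM4A as well (0.20), and KDM6B did so with opposite signs, at 0.24 after GC correction and -0.36 without combination replicate 1.

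Whether the combination acted differently in the lines was tested on the 8 libraries with R1881 or the combination. By adjusted p the effect was higher in C4-2 for 3 members and lower for 3 (6 of 10, against 47.6% of all genes, 21.7% higher and 25.9% lower), and 3 were past the 2-fold threshold (25.3% of all genes). For KDM3A the effect was 1.02 in C4-2 and -0.48 in LNCaP, a difference of 1.45 ± 0.12 (adjusted p = 1.632e-09). For KDM5B it was 0.15 and -0.99 (difference 1.09 ± 0.12, adjusted p = 5.49e-08), and for KDM4C -1.04 and 0.50 (difference -1.59 ± 0.20, adjusted p = 5.438e-07). KDM3A and KDM4C thus moved in opposite directions in the lines. For KDM4C the LNCaP part was weak, since that call was lost with DESeq2 (0.50, adjusted p = 0.0645). It was also lost in some fits that left out 1 library. KDM4A fell in C4-2 and measured 0.14 in LNCaP, a difference of -0.99 ± 0.12 (adjusted p = 2.802e-07), just inside 2-fold.

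KDM4B and KDM5A differed less, by -0.38 ± 0.13 (adjusted p = 0.01812) and 0.37 ± 0.12 (adjusted p = 0.01641). After GC correction both were larger, -0.73 (adjusted p = 2.68e-06) and 0.67 (adjusted p = 9.11e-06). The KDM4B call was lost with DESeq2 (-0.32, adjusted p = 0.0758) and with all 12 libraries in 1 fit (-0.25, adjusted p = 0.317). Both calls were lost when 1 library was left out: for KDM4B either LNCaP R1881 replicate (-0.22 and -0.33), C4-2 R1881 replicate 2 (-0.33) or either C4-2 combination replicate (-0.38 and -0.38), with adjusted p from 0.0606 to 0.249, and for KDM5A C4-2 R1881 replicate 2 (0.34) or C4-2 combination replicate 2 (0.36), with adjusted p = 0.0705 and 0.0633. KDM6A (0.08 ± 0.13), KDM6B (0.08 ± 0.14), JMJD1C (-0.14 ± 0.12) and KDM3B (0.15 ± 0.12) did not pass the test. KDM6A and KDM6B passed it after GC correction (0.36 and -0.32), and KDM3B without LNCaP R1881 replicate 2 (0.33). Without LNCaP combination replicate 1, the library whose header names namoline only, the 6 called differences were 1.36 (KDM3A), 1.12 (KDM5B), -1.73 (KDM4C), -0.98 (KDM4A), -0.32 (KDM4B) and 0.40 (KDM5A), all still called. Line and marker levels cannot be told apart in these libraries.

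**Figure D4:**
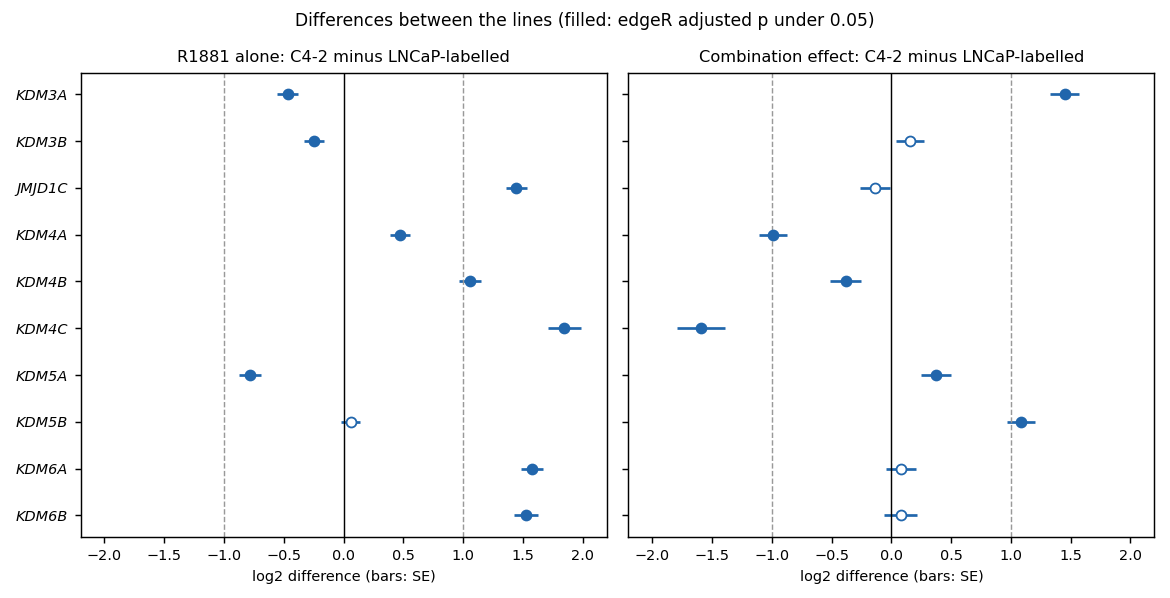
Left, log2 difference in level with R1881 alone, C4-2 minus the libraries labelled LNCaP. Right, log2 difference of the combination effect between the lines, with bars for SE, filled symbols where edgeR's adjusted p was under 0.05 and dashed lines at 2-fold. KDM4C is at 1.85 on the left and -1.59 on the right, and KDM3A at -0.47 and 1.45.

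The rest of the enzyme system was read from fixed lists, with the 2 largest changes past the 2-fold threshold named per list and comparison. Of 20 other JmjC genes 18 were tested in C4-2: 5 rose and 3 fell with namoline, 3 rose and 3 fell with TCE-5002, and 8 rose and 3 fell with the combination, against 35.0%, 36.5% and 50.3% of all genes in either direction. JARID2, a JmjC protein without demethylase activity that works with Polycomb, fell with the combination by 1.78 ± 0.14 on the log2 scale, and HSPBAP1 rose by 1.56 ± 0.15. HR, an H3K9 demethylase present at a low level, rose with namoline (1.46 ± 0.47, from 0.579 to 1.67 CPM) and with TCE-5002 (2.02 ± 0.45, to 2.43 CPM). Its interaction of -4.12 ± 0.68 and that of KDM7A, the named target of TCE-5002, at 2.71 ± 0.18 were the largest of the list. The HR value rests on few counts, 15 and 7 with R1881 and 11 and 2 with the combination. KDM7A measured 101 and 97.5 CPM with R1881, 63.8 and 56.5 with namoline, 70.9 and 60.6 with TCE-5002, and 243 and 283 with the combination, so that, as for KDM3A and JMJD1C, the single treatments were lowest and the combination highest.

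The methyltransferases that write the same marks were counted by residue. With namoline 3 of 7 H3K9 enzymes rose and 1 fell, with SUV39H1 past 2-fold (1.09 ± 0.24), and of the H3K36, H3K4 and H3K27 enzymes (5, 6 and 2 tested) 0, 1 and 0 rose and 1 of each fell. With TCE-5002 2 H3K9 enzymes rose and 1 fell, while 3 H3K36, 4 H3K4 and 1 H3K27 enzymes fell and 0 rose. Of all genes 18.7% rose and 16.3% fell with namoline, and 19.9% rose and 16.7% fell with TCE-5002. With the combination 2 H3K9, 3 H3K36, 4 H3K4 and 1 H3K27 enzymes rose, and 1 H3K9 and 1 H3K4 enzyme fell, where 24.8% of all genes were higher and 25.6% lower. EZH1, the Polycomb methyltransferase of H3K27, rose by 1.26 ± 0.11 and NSD3, of H3K36, by 1.15 ± 0.11 on the log2 scale. In the interaction NSD3 (2.42 ± 0.16), KMT2A, of H3K4 (1.81 ± 0.17), and SETDB2, of H3K9 (1.67 ± 0.18), were above the sum past 2-fold. So were EZH1 (1.61 ± 0.16) and SETD2, of H3K36 (1.16 ± 0.16). Below it past 2-fold were 2 H3K9 enzymes, the larger change being that of SUV39H2 (-1.75 ± 0.23). Of all genes 16.7% were above and 18.6% below past 2-fold.

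Of 14 hypoxia response genes 13 were tested in C4-2. With namoline 3 rose and 2 fell, VEGFA by 1.54 ± 0.14 and NDRG1 by 1.01 ± 0.21 on the log2 scale. With TCE-5002 7 rose and 0 fell, with LDHA (1.09 ± 0.12) and P4HA1 (1.01 ± 0.11) past 2-fold, and with the combination 2 rose and 7 fell, NDRG1 by 1.16 ± 0.21. Of all genes 18.7% rose and 16.3% fell with namoline, 19.9% and 16.7% with TCE-5002, and 24.8% and 25.6% with the combination. CA9 held 1 count in each combination library, too few for a fold change. VEGFA, the vascular growth factor, measured 459 ± 21.5 CPM with R1881 and 159 ± 21.2 with namoline. With TCE-5002 it measured 372 ± 64.7 and with the combination 1005 ± 132 (SD, n = 2), the same order of groups as KDM3A. The list as a whole did not share that order. In the interaction 1 hypoxia gene was above the sum and 8 were below, against 25.6% and 27.9% of all genes. The median interaction of the list was -0.82. A link of hypoxia genes to the member values was not tested.

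In the libraries labelled LNCaP, 5 of 16 other JmjC genes rose and 7 fell with the combination (against 28.0% and 28.2% of all genes), with KDM4D, an H3K9 demethylase, past 2-fold (-1.60 ± 0.17). Of the H3K9, H3K36, H3K4 and H3K27 methyltransferases 2, 0, 0 and 1 rose and 4, 3, 5 and 0 fell. SUV39H1 (-1.61 ± 0.13), SETD1B, of H3K4 (-1.50 ± 0.12), and NSD1, of H3K36 (-1.24 ± 0.11) were lower past 2-fold and SETDB2 higher (1.02 ± 0.13). Of 13 hypoxia genes 1 rose and 8 fell, led by ADM (-2.005 ± 0.28) and SLC2A1 (-1.54 ± 0.11). Without combination replicate 1, the library whose header names namoline only, all 7 stayed past 2-fold: KDM4D was -1.69, SUV39H1 -1.74, SETD1B -1.69, NSD1 -1.33, SETDB2 1.01, ADM -1.94 and SLC2A1 -1.62. The counts then became 5 and 8 for the other JmjC genes, 1 and 4 for the H3K9 enzymes and 2 and 8 for the hypoxia genes (higher and lower), with those of the H3K36, H3K4 and H3K27 enzymes as before.

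Across the 8 C4-2 libraries, which share their 4 groups, log2 CPM of KDM3A correlated most with KDM5B (Pearson r 0.885), JMJD1C (0.856) and KDM5A (0.853) among the members. The most negative r was that with KDM4B (-0.759). Of 9866 other genes with a symbol and a mean of at least 10 CPM, those most like KDM3A were MKRN1 (r 0.995), an E3 ubiquitin ligase, OTUD1 (0.9947), a deubiquitinase, and CREBRF (0.9931), a regulator of CREB3 proteins. CREBRF measured 43.7 ± 0.586 CPM with R1881, 17.4 ± 2.79 with namoline, 31.9 ± 3.63 with TCE-5002 and 169 ± 10.3 with the combination (SD, n = 2). These values describe the pattern over 4 groups and were not tested.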

How the data were processed

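Poly(A) RNA was sequenced by the authors as paired reads, trimmed with Trim Galore and aligned with STAR to GRCh38. Each deposited file holds 1 library's raw fragment counts per gene from featureCounts 1.5.0-p1 and Ensembl release 83, as its header states. Fragments were counted without strand, so a gene and one overlapping it on the other strand cannot be told apart. Groups were taken from the titles, since a treatment protocol in the labels describes siRNA work that does not match them.

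The members, lists and motifs were chosen with earlier results of these data known, and the motifs after the member values were seen. Genes were kept with filterByExpr, scaled by TMM and tested in R 4.3.3 by the quasi-likelihood F test of edgeR 4.0.16 (with limma 3.58.1), and p-values were adjusted over all genes tested by Benjamini-Hochberg. The C4-2 comparisons used all 8 C4-2 libraries, the LNCaP comparison its 4, and those between lines the 8 with R1881 or the combination. SE is the size of the log2 fold change divided by the square root of its F. Exon lengths and coordinates are those of the files. CPM were computed from the deposited counts. Library totals of 14791602 to 20690819 gave each member at least 169 counts. The scripts were tested on simulated data. Named genes were all members, the 2 largest changes past the threshold per context list and comparison (given for the treatment comparisons), and the 3 genes most correlated with the widest-ranging member. Alternatives were RLE scaling, no count filter, DESeq2 1.42.0, a replicate block, all 12 libraries, only the 4 compared, GC correction (a smooth trend on transcript GC per library) and leaving out each library. They were run for the members and for the count of all genes, and leaving out LNCaP combination replicate 1 also for the lists. With 2 replicates per group, p-values rest on spread shared across genes.

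Replicate numbers came from the titles. Deviations of same-numbered libraries correlated at r -0.025 to 0.466 over the 6 pairs of C4-2 groups and 0.051 in LNCaP, so the numbers were not taken to pair samples.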

Additional observations from a re-analysis of the deposited data

Results flagged for a closer look

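The effect of the combination against R1881 alone differed between C4-2 and the libraries labelled LNCaP for 6 of the 10 members. This is by edgeR's test of the difference itself (C4-2 minus LNCaP, log2 scale, adjusted p over 19763 genes). By the same test 47.6% of all genes differed, 21.7% higher and 25.9% lower in C4-2. The effect was higher in C4-2 for KDM3A (1.45 ± 0.12 SE, adjusted p = 1.632e-09), KDM5B (1.09 ± 0.12, adjusted p = 5.49e-08) and KDM5A (0.37 ± 0.12, adjusted p = 0.01641). It was lower in C4-2 for KDM4C (-1.59 ± 0.20, adjusted p = 5.438e-07), KDM4A (-0.99 ± 0.12, adjusted p = 2.802e-07) and KDM4B (-0.38 ± 0.13, adjusted p = 0.01812). The KDM5A and KDM4B calls were lost in some fits that left out 1 library (KDM5A 0.34 without C4-2 R1881 replicate 2, KDM4B -0.22 without LNCaP R1881 replicate 1). The KDM4B call was also lost with DESeq2 (-0.32, adjusted p = 0.0758) and with all 12 libraries in 1 fit (-0.25, adjusted p = 0.317), while GC correction gave larger values for both (KDM4B -0.73, KDM5A 0.67). The 4 libraries labelled LNCaP also differed from C4-2 in their markers, and the part of this in the differences was not tested.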

How the results depend on the processing

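Of 880 member values under alternatives, 829 kept their direction and their side of the 2-fold and adjusted p threshold, 19 newly passed it, 8 no longer did and 24 changed sign, 0 of which had an adjusted p under 0.05 in the reported fit. Of 45 calls by adjusted p alone, 34 held in every alternative and 11 were lost in at least 1. Where leaving out a library left 1 in a group, that library was assumed to vary like the other groups. The cause of these shifts was not tested.

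The number of members past the 2-fold threshold went from 0 to 1 for namoline with RLE scaling, DESeq2 or only the 4 libraries (JMJD1C, -1.01), and ranged from 0 to 1 without single libraries. For the C4-2 combination it went from 2 to 1 with GC correction (KDM4C) and ranged from 1 to 2. For the LNCaP combination it went from 0 to 1 without a count filter, with all 12 libraries or with GC correction (KDM5B, -1.02, -1.05 and -1.13) and ranged from 0 to 1. The counts over all genes stayed within 1.5 times the reported ones.

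Sign changes were these. KDM3B with the C4-2 combination was 0.02 with RLE scaling, DESeq2 or all 12 libraries, 0.04 with GC correction, and -0.03 to 0.03 without single libraries, and its interaction -0.05 to 0.14. KDM6B with TCE-5002 was -0.56 to 0.05 without single libraries. KDM5A with the LNCaP combination was -0.01 without a count filter, -0.04 with all 12 libraries, -0.16 with GC correction and -0.08 to 0.11 without single libraries, and KDM6B 0.24 with GC correction. In the difference between the lines GC correction gave JMJD1C 0.20 and KDM6B -0.32, and leaving out single libraries gave JMJD1C -0.20 to 0.05, KDM6B -0.08 to 0.26 and KDM6A 0.00 to 0.28.

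With the replicate number as a block, the count for namoline was 1 (JMJD1C, -1.0), and genes past the threshold numbered 2181 for namoline, 2129 for TCE-5002, 3871 for the C4-2 combination, 6285 for the interaction, 3062 for the LNCaP combination, 4763 for the line difference and 9408 at baseline. Deviations of same-numbered libraries correlated at r -0.025 to 0.466 among the C4-2 groups and 0.051 in LNCaP, which leaves the pairing undecided. The difference between replicates followed GC with the same sign in every C4-2 group (Spearman rho -0.787 to -0.243). The block together with GC correction gave 1 member for each combination comparison, KDM3B 0.04, KDM5A -0.16, KDM6B 0.25 and, in the line difference, JMJD1C 0.19 and KDM6B -0.33.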
